A study of Mus musculus with 88 samples.

Results

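Cluster 19 of the mouse embryoid body single cells, labelled here vascular mesoderm, held 57 of the 4949 kept cells. Its members are the cells that the authors' clustering at resolution 2.5 put in cluster 19, and no gene level was used again to pick them. In embryoid bodies (EBs), clumps of stem cells kept without LIF, cells of all germ layers form. Live cells were sorted 1 to a well, and 1 plate was made into a library for each genotype (E14 wild type, or WT, and lines null for Mtf2, for Jarid2, or for Eed, all labelled with strain E14) at each of days 0, 4, 7, and 10. Mtf2, Jarid2, and Eed encode subunits of Polycomb Repressive Complex 2, which places a repressive methyl mark on histone H3, and the study asked how their loss changes the course of differentiation. Each null genotype is 1 cell line, the Mtf2 null line a gene trap, and for bulk RNA the study names other wild-type lines as matched to them (pclwt for Mtf2 null, JM8 for Jarid2 null, J1 for Eed null), so in the comparisons with E14 WT a difference of genotype and a difference of line cannot be told apart. Bulk RNA came from a monolayer driven through primitive streak to lateral mesoderm by added factors (WT, Mtf2 null, and Jarid2 null, undifferentiated and at 5, 24, and 48 h, 2 libraries each) and from EBs of the wild-type lines J1, JM8, and pclwt at days 0, 2, 4, and 7, with 1 sample per line and day. The day 0 values of these lines are headed mono and the later ones eb, while the sample titles say eb for every day.

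Endothelial cells line blood vessels and arise from mesoderm that carries the VEGF receptor Kdr, under ETS family factors such as Etv2 and with Tal1 and Lmo2, a set shared with blood progenitors. They close their junctions with the cadherin Cdh5, and they later take on arterial, venous, lymphatic, or endocardial character. Kdr is also present in mesoderm that gives rise to heart and blood, so Cdh5 is the more restricted of the 2 markers given for the cluster.

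The share of cluster 19 cells went from 0 of 1364 cells at day 0 to 3 of 1303 at day 4 (0.23%), 9 of 1281 at day 7 (0.703%), and 45 of 1001 at day 10 (4.5%, exact Clopper-Pearson 95% interval 3.3 to 5.97%). Each of the 4 genotypes supplied cells. At day 10 the share was 2.34% in WT (5 of 214 cells, interval 0.763 to 5.37%), 3.74% in Mtf2 null (12 of 321, 1.95 to 6.44%), 6.82% in Jarid2 null (18 of 264, 4.09 to 10.6%), and 4.95% in Eed null (10 of 202, 2.4 to 8.92%). The interval of each null line overlapped that of WT. As shares of all wells sorted, kept or not, the day 10 values were 1.3% in WT, 3.12% in Mtf2 null, 4.69% in Jarid2 null, and 2.6% in Eed null, so on that scale Eed null was below Mtf2 null. At day 7 the cluster held 3 WT, 2 Jarid2 null, and 4 Eed null cells and 0 of 344 Mtf2 null cells, which allows a share of up to 0.872% at 3 counts (exact interval up to 1.07%). The earliest cells were 1 Mtf2 null and 2 Jarid2 null cells at day 4. With 1 library per genotype and day there is no replicate check and no test between genotypes, and the intervals cover counting error only. The 57 cells came from 54 different well positions of the plates.

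**Figure D1:**
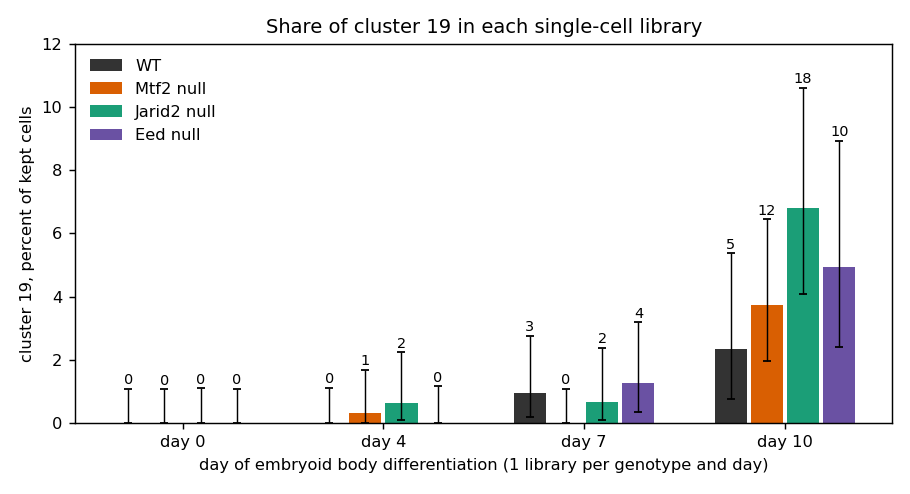
Share of kept cells in cluster 19 (percent, vertical axis) in each of the 16 single-cell libraries, by day and genotype; lines are exact 95% intervals for counting error and the numbers are cells. No cell was found at day 0, and at day 10 the shares lie between 2.34% in WT and 6.82% in Jarid2 null with overlapping intervals for WT and each null line.

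Cluster 4, a mesodermal cluster used for comparison, had its largest day 10 share in WT and its largest day 7 share in Mtf2 null. This cluster, which carries genes of lateral and cardiac mesoderm, made up 42.1% of WT day 10 cells (90 cells), 24.9% in Mtf2 null (80), 12.5% in Jarid2 null (33), and 1.49% in Eed null (3). At day 7 it made up 10.1% in WT (32 cells), 23.0% in Mtf2 null (79), 2.32% in Jarid2 null (7), and 0% in Eed null. All these shares are of kept cells, so a gain of one cluster lowers the others in the same library. Kept cells at day 10 numbered 214 in WT and 321 in Mtf2 null, from equal numbers of wells sorted. As shares of all wells, the 90 WT and 80 Mtf2 null cells of cluster 4 at day 10 therefore lay closer together than as shares of kept cells. The day 10 order of the genotypes was the same on that scale. The study clustered cells on its most variable genes after regressing out library effects, and genes that differ between genotypes may be among them.

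Depth did not set cluster 19 apart. Its cells held a median of 6159 UMIs (range 1475 to 28358), against 6138 in the 324 cells of cluster 4 and 6668 in all 4892 other cells, and its pooled total was 424155 UMIs. A UMI (unique molecular identifier) tags 1 captured mRNA molecule, and levels below are CPM, the UMIs of a gene divided by all UMIs of a group of cells and multiplied by 1000000, with exact Poisson 95% intervals. A gene is counted as higher or lower when the log2 ratio of CPM, with 1 UMI added to each group, was above 2 in size and at least 20% of the cells of the higher group had a UMI of it. Because the clusters were made from the most variable of these same genes in these same cells, the comparisons of clusters are descriptions without a test.

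Kdr and Cdh5 both marked the cluster. Kdr was at 1250 CPM (1140 to 1360) and in 56 of 57 cells, against 160 CPM in cluster 4 and 28.7 CPM in all other cells. Its next highest level among the 22 clusters was 204 CPM, in cluster 14. Cdh5 was at 248 CPM (202 to 300) and in 34 of 57 cells, against 2.29 CPM in cluster 4 and 0.472 CPM in all other cells. Both markers were found together in 34 cells, Kdr alone in 22, and neither in 1. Outside the cluster 16 of 4892 cells had a Cdh5 UMI and 5 had both. Thinned to 2500 UMIs per cell, with shallower cells left out, Cdh5 was seen in 45.3% of 53 cells of cluster 19, 0.993% of cluster 4, and 0.136% of the other cells. Within each day 10 library the contrast was present: Cdh5 was at 672 CPM in cluster 19 of WT, 562 in Mtf2 null, 92.3 in Jarid2 null, and 300 in Eed null, and at 1.11, 3.18, 1.35, and 0.792 CPM in the cells of the same libraries outside clusters 19 and 18 (cluster 18 holds the most globin). The label of the cluster fits these markers, and its cells are called endothelial-like below. The anatomy terms that the paper lists differ from this label. They are heart and pericardium for cluster 19, and cardiovascular system and vascular element for cluster 4, both classed as mesodermal. The paper's text likens cluster 4 to lateral mesoderm with high cardiac markers.

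Most endothelial receptor and junction genes were higher in cluster 19. Of 39 listed genes 35 were in the table and all 35 had a UMI in the cluster. Sox7, a transcription factor, was on this list as well as on the list of transcription factors below, so it counts in both. Of all 6180 genes detected in enough cells, 4.79% were higher than in all other cells and 2.61% lower. Of the 35 receptor and junction genes 30 were higher and 0 lower, with a median log2 ratio of 5.44 against 0.04 over all those genes. Their level was first among the 22 clusters for 33 of 35. Their summed level was 6920 CPM (6670 to 7170), against 683 in cluster 4 and 276 in all other cells. Set against cluster 4, where 3.23% of 5909 genes were higher and 1.78% lower, 29 were higher and 0 lower, with a median log2 ratio of 4.49 against 0.03 over all those genes.

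Flt1, Flt4, Tek, and Tie1, receptors of VEGF and angiopoietins, were higher in cluster 19 than in all other cells and than in cluster 4. Flt1, a VEGF receptor and decoy, was at 568 CPM (499 to 645) and in 44 cells, against 39.0 in cluster 4. Flt4, the VEGF receptor of lymphatic and early vessels, was at 120 CPM and in 22 cells, with 3.25 CPM in all other cells. Tek, the angiopoietin receptor, was at 156 CPM (120 to 198; cluster 4 20.6), and its partner Tie1 at 191 CPM (152 to 237; cluster 4 2.29). Nrp1, a VEGF and semaphorin co-receptor, was higher than in all other cells but not than in cluster 4: it was at 75.4 CPM in cluster 19 and 202 CPM in cluster 4. Ramp2 and Calcrl, which together form the adrenomedullin receptor, were at 439 and 358 CPM, against 37.6 and 13.8 in cluster 4.

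Junction and surface proteins showed the same split. Esam, a tight junction adhesion molecule, was at 238 CPM (194 to 289) and in 41 cells, against 1.83 CPM in cluster 4. Emcn, an endothelial sialomucin, was at 151 CPM (116 to 193), against 2.29. Cd34, a surface sialomucin of endothelial and blood progenitor cells, was at 250 CPM and in 28 cells, against 2.75. Cd93, a C-type lectin of endothelium, was at 231 CPM, against 3.21. Egfl7, a secreted vessel factor, was in 51 cells at 674 CPM and rarer in all other cells, at 24.8 CPM. Icam2 and Cldn5 were in 14 and 12 cells and had no UMI in cluster 4. Pecam1, an adhesion molecule that pluripotent stem cells also carry, was less restricted, at 141 CPM against 24.8 in cluster 4 and 25.3 in all other cells. Eng, Robo4, Clec14a, and Adgrl4 were seen in 7, 6, 4, and 9 cells, which is under the 20% limit, and Crip2 was in 30 cells with a log2 ratio of 1.78.

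**Figure D2:**
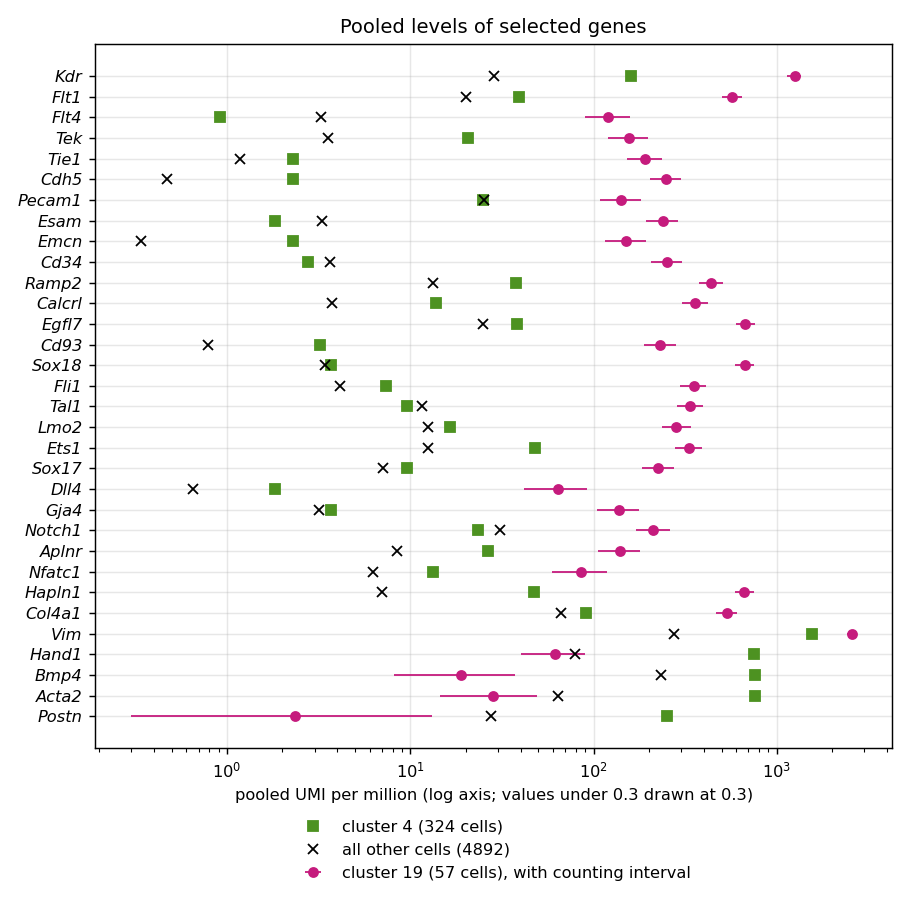
Pooled level of 32 genes (CPM, log axis) in cluster 19 (circles with exact 95% counting intervals), cluster 4 (squares), and all other cells (crosses). Receptors, junction proteins, and endothelial transcription factors lie to the right in cluster 19, with Kdr at 1250 and Sox18 at 670, while Hand1, Bmp4, Acta2, and Postn lie to the right in cluster 4.

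The transcription factors of endothelium were present with both early and later members. Of 19 genes 15 were higher than in all other cells, 13 were higher than in cluster 4, and their summed level was 3900 CPM (3720 to 4100), against 398 in cluster 4 and 659 elsewhere. Sox18, a SoxF factor of vessel and lymphatic development, was at 670 CPM (594 to 752) and in 46 cells, against 3.67 in cluster 4 and 3.43 elsewhere, a log2 ratio of 7.60 to all other cells. Its relatives Sox7 and Sox17 were at 118 and 226 CPM, but Sox17 was at 361 CPM in cluster 21. The ETS factors Fli1 (351 CPM, 44 cells), Ets1 (330 CPM, 44 cells), Ets2 (285 CPM, 48 cells), and Elk3 (276 CPM, 43 cells) were all higher than in cluster 4, and Erg, the ETS factor of mature endothelium, was in 15 cells at 51.9 CPM. Tal1 and Lmo2, shared with blood, were at 337 and 283 CPM, and in cluster 18, the cluster with the most globin, they were at 337 and 239 CPM. Hhex was in 39 cells at 316 CPM. Klf2, a flow-responsive factor in endothelium that stem cells also use, was the exception, at 101 CPM against 482 in all other cells. Mef2c was at 116 CPM and at 94.4 in cluster 4.

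Etv2, the ETS factor that opens the endothelial and blood programme and is then shut off, was found in 11 cells at 49.5 CPM (30.6 to 75.7). Of those 11 cells 9 had Tal1, and 2 had Cdh5. The Etv2 cells were 1 of 8 WT, 3 of 13 Mtf2 null, 5 of 22 Jarid2 null, and 2 of 14 Eed null cells.

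Of the 20 genes with the highest ratio to all other cells, which describe the cluster and are not a test of it, 12 belonged to the lists above or to the lists of arterial and endocardial genes below. Gimap6 led, with UMIs in 16 cells of cluster 19 and 1 UMI in all 4892 other cells, and Cdh5, Emcn, Icam2, and Cd93 came next. The other 8 were Kcne3, Myct1, Rhoj, Ctla2a, Tmem204, Cav1, Adora2a, and Csgalnact1. Myct1, an endothelial membrane protein, was at 141 CPM in 33 cells, and Rhoj, a small GTPase of vessel cells, at 288 CPM in 41 cells. Csgalnact1 was the last gene inside this list, with a log2 ratio of 6.54, and Fli1 the next outside it, with 6.42. Cdh5 lies on chr8:104101625-104144511 (plus strand, GRCm38).

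Because several ETS factors were among the genes of the cluster, the 250 bases before the gene start were searched for the ETS core word GGAAGT on either strand. RefSeq (GRCm38.p6) promoter windows were matched for 12 of the 20 leading genes and for Kdr. Not matched were Cdh5, Icam2, Cd93, Ptprb, Sox18, Tmem204, Adora2a, and Csgalnact1. The word was in the windows of 5 of the 12 genes (Gimap6, Kcne3, Myct1, Rhoj, and Tie1), which is 5 of their 17 windows, and in 19.7% of all 32851 windows of that length. It was also in the window of Kdr, 217 bases before the gene start, and it lay 82 bases before the start of Tie1, 127 before that of Rhoj, and 6 before that of Myct1. Of other words searched in the same way on both strands, independently and with overlaps allowed, the SOX factor word ACAATG was in 4 of the 17 windows and 10.7% of all, the word AGATAA of GATA factors in 3 and 9.99%, and the FOX factor word TAAACA in 0 and 12.0%. A match describes these letters and is not evidence of binding. The windows of Kdr and of 3 leading genes are given 5′ to 3′ along the gene, with the ETS word or its reverse complement in capitals.
Kdr, chr5:75978456-75978705, minus strand: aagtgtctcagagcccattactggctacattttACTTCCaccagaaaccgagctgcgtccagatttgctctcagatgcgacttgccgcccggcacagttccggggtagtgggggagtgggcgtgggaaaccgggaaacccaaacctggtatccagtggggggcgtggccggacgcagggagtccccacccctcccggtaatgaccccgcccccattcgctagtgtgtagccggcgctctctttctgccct
Tie1, chr4:118489850-118490099, minus strand: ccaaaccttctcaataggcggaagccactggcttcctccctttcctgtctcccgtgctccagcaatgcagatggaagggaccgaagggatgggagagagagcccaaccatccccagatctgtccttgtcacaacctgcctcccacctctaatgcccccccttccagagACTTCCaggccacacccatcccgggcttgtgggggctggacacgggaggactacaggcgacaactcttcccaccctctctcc
Rhoj, chr12:75308063-75308312, plus strand: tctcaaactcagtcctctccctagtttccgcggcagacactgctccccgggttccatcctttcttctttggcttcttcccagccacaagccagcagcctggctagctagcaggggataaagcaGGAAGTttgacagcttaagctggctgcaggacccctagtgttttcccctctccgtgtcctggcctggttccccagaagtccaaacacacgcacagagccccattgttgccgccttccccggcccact
Myct1, chr10:5593478-5593727, plus strand: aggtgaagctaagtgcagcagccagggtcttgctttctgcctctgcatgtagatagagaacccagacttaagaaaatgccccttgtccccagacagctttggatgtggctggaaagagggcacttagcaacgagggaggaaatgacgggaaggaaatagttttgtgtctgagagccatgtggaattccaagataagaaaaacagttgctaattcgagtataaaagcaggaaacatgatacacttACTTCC

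Arterial and Notch genes were a smaller group. Of 11 genes 5 were higher than in all other cells and 3 than in cluster 4. Dll4, the Notch ligand of arterial and sprouting endothelium, was in 12 cells at 63.7 CPM (41.9 to 92.6), against 1.83 in cluster 4. Gja4, an arterial connexin, was in 20 cells at 137 CPM, against 3.67. Notch1 was in 37 cells at 212 CPM, against 23.4. Efnb2, the arterial ephrin ligand, was at 198 CPM in 37 cells, but also at 117 CPM in cluster 4, and Hey1, a Notch target, was at 182 CPM against 58.2. Cxcr4 and Unc5b were not higher, at 18.9 and 80.2 CPM against 48.1 and 238 in cluster 4.

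Of 7 venous and lymphatic genes 4 were higher than in all other cells and 2 than in cluster 4. The apelin receptor Aplnr, a marker of venous and early endothelium, was in 22 cells at 139 CPM, against 26.6 in cluster 4 and 110 in cluster 14. Nr2f2, a venous factor, was in 16 cells at 77.8 CPM, and at 210 CPM in cluster 15. Prox1 and Pdpn, which mark lymphatic vessels, were not higher, in 8 and 3 cells at 44.8 and 7.07 CPM. Arterial and venous genes occurred in the same cells: of the 12 Dll4 cells 5 had Aplnr and 3 had Nr2f2.

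Of 9 endocardial genes 4 were higher than in all other cells and 4 than in cluster 4. Hapln1, a link protein of the cardiac jelly, was in 42 cells at 665 CPM (590 to 747), against 47.2 in cluster 4. Nfatc1, a factor of endocardium, was in 21 cells at 84.9 CPM, against 13.3, and 6 of those cells had Dll4. Nrg1, the neuregulin that endocardium sends to heart muscle, was in 12 cells at 77.8 CPM. Of the Nrg1 UMIs of Eed null cells 80.0% came from 1 cell. Tbx20 was lower than in cluster 4, at 21.2 CPM against 128, and Gata4 was at 47.2 CPM against 78.4.

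Ligands of these receptors were mostly not enriched. Of 10 ligand genes 1 was higher, Pdgfb, which recruits pericytes to vessels, in 22 cells at 132 CPM (99.7 to 171), against 9.63 in cluster 4. Vegfa was at 158 CPM in cluster 19 and 154 CPM in cluster 4, and Vegfc at 101 and 71.1 CPM. Angpt1 and Pgf had 0 UMIs of 424155, where 3 UMIs would be 7.07 CPM.

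Most blood genes were rare in cluster 19, and Kit and Itga2b were higher. Of 21 blood genes 17 had a UMI there, and 5 were detected in enough cells for the comparison with all other cells and 6 for that with cluster 4. In each comparison 2 of these were higher, Kit and Itga2b, beside 4.79% and 3.23% of all genes detected in enough cells. Kit, the stem cell factor receptor, was in 29 cells at 179 CPM, and Itga2b, an early blood integrin, in 12 cells at 49.5 CPM. Runx1, which drives the change from endothelium to blood, was in 8 cells at 66 CPM, against 331 in cluster 18. Runx1 or Itga2b was in 17 cells, both in 3, and 9 of the 17 also had Cdh5. Gata1, Klf1, Ptprc, and Csf1r were at 0 UMIs in cluster 19 and at 210, 148, 28.9, and 35.8 CPM in cluster 18. Globin was present at the level of the surrounding library. At day 10 the summed globin genes were at 1980 CPM in cluster 19 of WT, 745 in Mtf2 null, 197 in Jarid2 null, and 0 in Eed null, against 1660, 647, 191, and 16.6 CPM in the cells of those libraries outside clusters 18 and 19, and between 11400 and 104000 CPM in cluster 18.

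The genes that set cluster 4 apart were low in cluster 19. Of 17 lateral and cardiac mesoderm genes 8 were lower than in cluster 4 and 0 higher, with summed levels of 403 CPM against 3060. Hand1, a factor of lateral mesoderm and heart, was at 61.3 CPM against 750, Hand2 at 44.8 against 267, Isl1 at 11.8 against 110, and Pdgfra at 9.43 against 147. Bmp4, a signal that induces ventral mesoderm, was at 18.9 CPM against 757 in cluster 4 and 234 in all other cells. Of 16 mesenchyme and smooth muscle genes 8 were lower than in cluster 4, among them Acta2 (28.3 CPM against 759), Col1a1 (30.6 against 561), Tagln (2.36 against 226), and Postn (2.36 against 252). Vim, an intermediate filament of mesenchymal and endothelial cells, was the exception, in 56 cells at 2560 CPM, against 1550 in cluster 4 and 276 in all other cells. Of 13 cardiomyocyte genes 6 had 0 UMIs and none was higher.

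Genes of the vessel basement membrane were partly higher. Of 12 genes 5 were higher than in all other cells, Col4a1, Col4a2, Lama4, Hspg2, and Col18a1. Col4a1, a chain of type IV collagen, was at 533 CPM, against 90.8 in cluster 4 and 1060 in cluster 21, and Col18a1 was at 410 CPM in 46 cells, against 137. Of 8 pluripotency genes all 8 were lower than in all other cells, with Pou5f1 at 0 UMIs, and none was lower than in cluster 4. None of 14 cell cycle genes differed past the limits, with Top2a in 44 cells and Mki67 in 25. Of 13 endoderm genes only Sox17 was higher, and Foxa1, Hnf4a, Apoa1, and Cer1 were at 0. Of 12 stress genes Jun was higher, at 347 CPM against 49.9 in all other cells, and its part in the other results was not tested.

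Cell by cell the endothelial genes separated the cluster from cluster 4 with little overlap. A cell of cluster 19 had UMIs of 6 to 38 of the listed endothelial genes (median 24), a cell of cluster 4 of 0 to 16 (median 3), and any other cell of 0 to 22 (median 2). At least 10 of these genes were found in 52 of 57 cells, in 6 of 324 cells of cluster 4, and in 42 of 4892 cells outside the cluster, including 9 in cluster 18 and 7 in cluster 16. The 15 genes lowest against cluster 4 summed to 0 to 981 CPM per cell in cluster 19 (median 79.3) and to 0 to 20200 CPM in cluster 4 (median 3670). Those 15 genes were picked by this same contrast in these cells, so a gap between the medians was given in advance.

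Over the 22 clusters, the genes whose pooled levels followed Kdr most closely by rank were Igfbp4 (Spearman correlation 0.926), Smad6 (0.917), Ifngr2 (0.912), Asb4 (0.911), and Rgs5 (0.909), out of 13667 genes with at least 50 UMIs. Igfbp4 was at 1250 CPM in cluster 19, its highest level of all clusters, but Rgs5 was at 28.3 CPM there, so the likeness comes from the order of the other clusters too. Of the genes most like Cdh5 (Hbb-bt 0.861, Vamp5 0.847, Pter 0.838), Hbb-bt was at 0 in 16 clusters, Vamp5 in 8, and Pter in 0. Cdh5 itself was at 0 in many clusters and at no more than 3.45 CPM in any but cluster 19. Its ranks thus rest largely on ties and few UMIs, and Hbb-bt was at only 2.36 CPM in cluster 19. The clusters share libraries and depth, and no p is given.

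Among the endothelial-like cells, receptor levels were lowest in Jarid2 null and highest in Mtf2 null, and transcription factor levels were closer together. The 35 receptor and junction genes summed to 7860 CPM (7060 to 8720) in 8 WT cells, 10300 (9660 to 11000) in 13 Mtf2 null cells, 4740 (4460 to 5050) in 22 Jarid2 null cells, and 8440 (7820 to 9100) in 14 Eed null cells. The order of the lowest and the highest was the same among day 10 cells alone, with 9560, 11800, 4930, and 8750 CPM in the order WT, Mtf2 null, Jarid2 null, and then Eed null. Single cells overlapped widely, from 1360 to 18000 CPM in WT, 3500 to 22100 in Mtf2 null, 497 to 11500 in Jarid2 null, and 2830 to 17400 in Eed null. The 19 transcription factors summed to 3670 CPM in WT, 4240 in Mtf2 null, 3740 in Jarid2 null, and 4110 in Eed null, with overlapping counting intervals. No test is given, since all day 10 cells of a genotype came from 1 library.

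**Figure D3:**
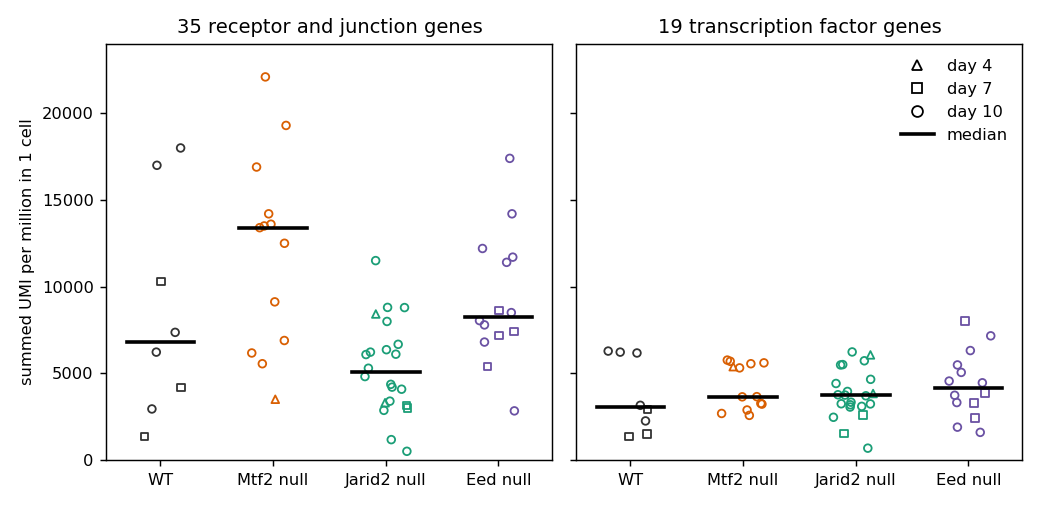
Summed level of the 35 receptor and junction genes (left) and of the 19 transcription factors (right) in each of the 57 cells (CPM of the single cell, vertical axis), by genotype; symbols give the day and bars the median over cells. Median receptor sums are 6790 in WT, 13400 in Mtf2 null, 5050 in Jarid2 null, and 8270 in Eed null, and the cells of the genotypes overlap.

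In Jarid2 null cells the lower receptor sum was seen in several single genes but not in all. Flt1 and Aplnr, given below, were higher in Jarid2 null than in WT. Cdh5 was at 582 CPM in WT (6 of 8 cells), 462 in Mtf2 null (10 of 13), 85.1 in Jarid2 null (9 of 22), and 258 in Eed null (9 of 14). Tie1 was at 358, 416, 66.2, and 185 CPM in the same order, and its WT UMIs were in 3 cells, with 43.8% in 1 of them. Mmrn2, an endothelial matrix protein, was at 291, 312, 28.4, and 234 CPM, and Mcam, an adhesion molecule, at 201, 312, 18.9, and 135. Of the WT Mmrn2 UMIs 53.8% came from 1 cell, and the WT Mcam UMIs were all in 1 cell. Cav1, the caveolae protein, was at 112, 404, 0, and 172 CPM. Aplnr had a different order, with 44.8, 115, 222, and 0 CPM and UMIs in 2, 6, 14, and 0 cells.

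Kdr did not share that pattern to the same degree, at 1660 CPM in WT, 1450 in Mtf2 null, 1170 in Jarid2 null, and 1010 in Eed null. Fli1 was at 336, 254, 406, and 320 CPM, Tal1 at 448, 196, 392, and 283, and Sox18 at 716, 912, 610, and 542. Eed null cells were highest in Ctla2a, a cysteine protease inhibitor, with 515, 231, 236, and 2180 CPM, and 13 of the 14 Eed null cells had it (1730 CPM without the highest cell). They were also highest in Cd34, with 403, 173, 66.2, and 726 CPM. Mtf2 null cells were highest in Flt1, with 179, 1260, 307, and 726 CPM. Arterial and Notch genes summed to 1280, 1730, 770, and 751 CPM, and basement membrane genes to 4230, 7180, 4900, and 5320.

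Other measures moved with the genotype as well. Cell cycle genes summed to 4500 CPM in WT, 4360 in Mtf2 null, 6610 in Jarid2 null, and 4730 in Eed null. Stress genes summed to 1070, 1430, 732, and 1510 CPM, and blood genes to 2480, 854, 449, and 505. Endoderm genes summed to 44.8, 462, 208, and 345 CPM, of which Sox17 belongs to endothelium too. Depth differed too, with a median of 5678 UMIs per cell in WT, 5523 in Mtf2 null, 8664 in Jarid2 null, and 5370 in Eed null. Their part in the receptor differences was not tested. The targeted transcripts, over all cells and as 3′ tags that need not lie in the deleted part, were at 536 CPM of Mtf2 in WT and 57.6 in Mtf2 null, 379 CPM of Jarid2 in WT and 143 in Jarid2 null, and 271 CPM of Eed in WT and 5.67 in Eed null.

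Junction and surface genes were higher in the late than in the early cells of the cluster, and the transcription factor sums were close. The 12 cells of days 4 and 7 summed to 4870 CPM of receptor and junction genes (4450 to 5320) and the 45 cells of day 10 to 7570 (7270 to 7880). Transcription factors summed to 3810 and 3940 CPM. Kdr was at 849 CPM (680 to 1050) in early and 1370 (1250 to 1510) in late cells, and Cdh5 at 117 (60.5 to 205) and 289 (233 to 354). Emcn had no UMI in early cells (interval 0 to 36) and was at 199 CPM in late cells. Cd93 was at 9.76 and 302 CPM, Cd34 at 48.8 and 314, Mmrn2 at 29.3 and 193, Plvap, a protein of vessel fenestrae, at 29.3 and 199, and Cav1 at 9.76 and 165. Among the factors Ets1 was at 156 and 385 CPM and Ets2 at 146 and 329.

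A few genes ran the other way. Fli1 was at 517 CPM (388 to 677) in early cells and 298 (242 to 364) in late cells, Gata2 at 342 and 140, and Hhex at 439 and 277. Of the early UMIs 1 Jarid2 null cell of day 4 held 18 of 35 for Gata2, and without each gene's highest cell the early levels were 513, 208, and 318 CPM. Nrg1 was at 205 and 37.3 CPM, but 1 Eed null cell held 16 of its 21 early UMIs, and without it the early level was 54.6 CPM. Pluripotency genes summed to 273 CPM in early and 40.4 in late cells. Early cells came from the WT, Jarid2 null, and Eed null libraries of day 7 and the Mtf2 null and Jarid2 null libraries of day 4, and their genotypes are not in the proportion of the late cells, so day and genotype cannot be fully told apart here.

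**Figure D4:**
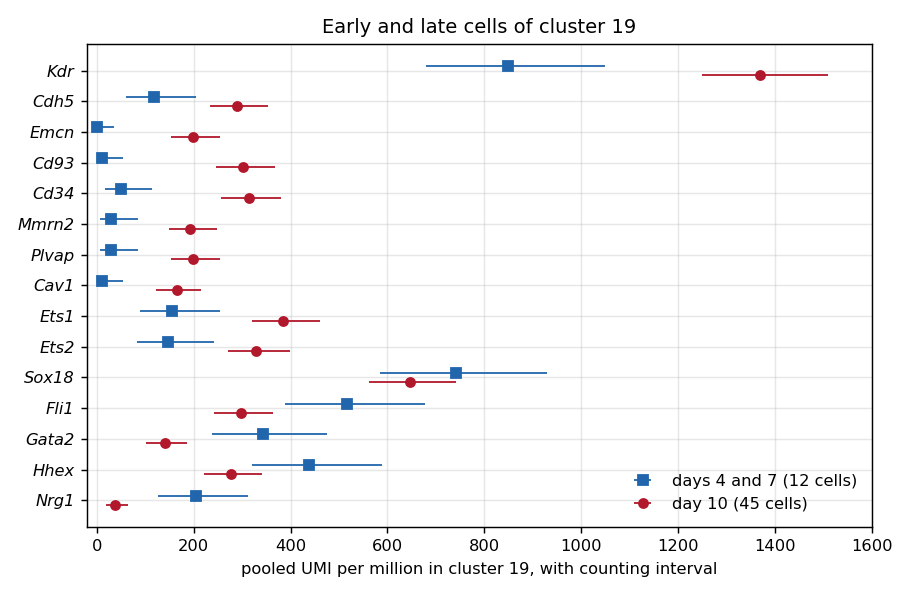
Pooled levels (CPM) of 15 genes in the 12 early cells (days 4 and 7, squares) and 45 late cells (day 10, circles) of cluster 19, with exact 95% counting intervals. Kdr, Cdh5, Emcn, Cd93, and Cd34 are higher in late cells, and Fli1, Gata2, and Hhex are higher in early cells.

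Whether directed mesoderm reaches the same genes was asked in the monolayer, in libraries that the clustering did not use. The deposited values were Salmon estimated counts, between 9112116 and 16898498 per library. All 24 libraries were fitted together with edgeR's quasi-likelihood test, with p-values adjusted by Benjamini-Hochberg. Calls used the limits of the study, an adjusted p below 0.001 with a log2 fold change of more than 1 either way. The study calls its duplicates technical, so p-values measure only the spread between these libraries. In bulk RNA fewer cells of a type and less RNA per cell cannot be told apart.

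In WT mesoderm most of the endothelial genes were low or were not called at 48 h. Kdr was at 0 to 9 estimated counts in any of the 24 libraries and, like Etv2, Fli1, Erg, Cldn5, Icam2, Emcn, Aplnr, and Dll4, fell below the filter on low counts. From undifferentiated to 48 h, 5.57% of 18361 genes rose and 3.08% fell. Of 27 receptor and junction genes tested 3 rose and 2 fell. Tek was at 2.56 and 1.96 CPM in undifferentiated and 8.22 and 8.63 CPM in 48 h libraries (log2 fold change 1.90, SE 0.23, adjusted p = 1.7e-06). Eng, the TGF-beta co-receptor of endothelium, went from 14.0 and 7.65 to 40.1 and 51.4 CPM (2.09, SE 0.19, adjusted p = 6.4e-08), and Mmrn2 from 10.1 and 7.91 to 24.5 and 36.6 (1.76, SE 0.23, adjusted p = 6.0e-06; 0.0048 without replicate 2). In each of the 3 the groups did not overlap. Robo4 fell by 2.77 (adjusted p = 2.5e-06), and Esam by 1.54 (adjusted p = 5.1e-04, with 0.0061 without replicate 1 and 0.044 without replicate 2, which are above the limit).

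Of 15 transcription factors tested 1 rose and 1 fell. Gata2, a factor of blood and endothelium, was at 4.03 and 2.98 CPM in undifferentiated and at 15.7 and 17.7 in 48 h libraries (2.25, SE 0.35, adjusted p = 4.8e-05, edgeR), with adjusted p of 0.0011 without replicate 1 and 0.011 without replicate 2. Bcl6b fell by 1.74 (adjusted p = 5.8e-06; 0.0027 without replicate 1). Kit fell by 1.23, from 54.8 and 42.8 to 21.7 and 19.8 CPM (adjusted p = 7.7e-06). Of the 20 leading genes of cluster 19 only 8 could be tested. By edgeR none of them was called, 1 rose and 2 fell at an unadjusted p under 0.05, and DESeq2 called 0. The share of all genes at that unadjusted p was not computed, so the counts by it have no background.

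Mtf2 null mesoderm at 48 h differed from WT in several endothelial genes together with endoderm genes. The Mtf2 transcript was at 30.1 and 33.6 CPM in Mtf2 null and 291 and 205 in WT libraries. Of 18361 genes 3.76% were higher and 3.06% lower than in WT. Of 27 receptor and junction genes 5 were higher, Cdh5, Tek, Esam, Mcam, and the transcription factor Sox7, which is on both endothelial lists, and 1 was lower, Mmrn2. Cdh5 was at 1.90 and 1.58 CPM in Mtf2 null and 0 in both WT libraries (adjusted p = 4.5e-05, edgeR), and at 2.14 and 3.52 CPM in undifferentiated Mtf2 null libraries. Tek was at 24.7 and 20.8 CPM (log2 fold change 1.43, SE 0.18, adjusted p = 5.1e-06; 0.003 without replicate 1), Esam at 4.72 and 4.98 against 1.17 and 1.06 (2.10, SE 0.30, adjusted p = 1.7e-05; 0.0022 and 0.0036 without replicates 1 and 2), and Mcam at 100 and 89.0 against 43.2 and 45.8 (1.09, SE 0.17, adjusted p = 5.6e-05; 0.013 and 0.0014 without replicates 1 and 2). Mmrn2 was at 1.36 and 1.34 CPM, lower by a log2 fold change of -4.48 (SE 0.30, adjusted p = 4.8e-10), and at 0.559 and 0.828 CPM already in undifferentiated Mtf2 null libraries.

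Among the factors, Sox7 was at 15.0 and 20.7 CPM in Mtf2 null and 2.22 and 3.26 in WT (log2 fold change 2.72, SE 0.25, adjusted p = 8.1e-08, edgeR), and Sox17 at 21.2 and 16.5 against 0.196 and 1.30 (4.72, SE 0.47, adjusted p = 2.1e-07). In none of these genes did the groups overlap. Of 6 endocardial genes tested 3 were higher, Nfatc1 (2.07, adjusted p = 3.1e-04; 0.024 without replicate 1), Gata4 (2.86, adjusted p = 3.2e-10), and Nrg1 (3.18, adjusted p = 8.0e-09). Of 9 blood genes 2 were higher, Runx1 (13.7 and 10.7 CPM against 0.783 and 1.06, log2 3.73, adjusted p = 2.2e-09) and Csf1r, which was at 0 in both WT libraries. In the same libraries 8 of 10 endoderm genes, 8 of 8 parietal endoderm genes, and 6 of 12 basement membrane genes were higher, and Sox7 and Sox17 are on those endoderm lists. The part of endoderm cells in these differences was not tested.

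In the mesoderm libraries labelled Jarid2 null, the Jarid2 transcript at 48 h was at 397 and 447 CPM against 406 and 387 in WT, so its level did not separate them, and a difference from WT is given here by label only. Of 18361 genes 0.142% were higher and 0.0272% lower. By edgeR 0 of 27 receptor and junction genes and 0 of 15 transcription factors were called, 1 and 0 were higher and 1 and 1 lower at an unadjusted p under 0.05, and DESeq2 called 0. Here too the share of all genes at that unadjusted p was not computed. Tek was at 7.95 and 6.45 CPM, Eng at 46.3 and 47.9, and Cdh5 at 0 and 0.152. Kit, at 12.7 and 7.05 CPM against 21.7 and 19.8, had a log2 fold change of -1.09 and an adjusted p of 0.0023 (edgeR), which is above the limit.

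Genes of cluster 19 were also measured in whole EBs of 3 other wild-type lines. The deposited values were counts divided by a size factor per column, and those of 12 samples were used after averaging repeat columns. Day 7 was compared with day 4 by limma on log2(value + 1), with the line as a block and the 3 lines as replicates. Of 13215 genes 0.0605% rose and 0.0227% fell at an adjusted p under 0.05. The lines differed widely. Kdr at day 4 was at 1610 in J1, 14.5 in JM8, and 16.0 in pclwt, and at day 7 at 1170, 712, and 21.4 (log2 fold change 1.82, SE 1.5, adjusted p = 0.53, limma), so it was high from day 4 in J1, at day 7 only in JM8, and low in pclwt at both days. Etv2 was at 119, 13.6, and 11.8 at day 4 and 12.9, 39.1, and 8.35 at day 7, higher at day 7 in 1 of 3 lines.

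Cdh5 was at 44.3, 7.56, and 2.54 in J1, JM8, and pclwt at day 4 and at 763, 402, and 6.05 at day 7 (log2 fold change 3.54, SE 1.25, adjusted p = 0.20, limma), higher in 3 of 3 lines. Cd93 went from 1.91, 2.95, and 0.832 to 411, 130, and 3.65 (4.51, SE 1.38, adjusted p = 0.16), and Tek from 25.1, 12.0, and 59.0 to 391, 152, and 100 (2.74, SE 0.61, adjusted p = 0.097). Nr2f2 was the only gene of the endothelial lists that passed, from 17.2, 10.8, and 5.08 to 187, 115, and 101 (3.58, SE 0.49, adjusted p = 0.042, limma). It did not pass without J1 (0.093) or without JM8 (0.93). In the single cells Nr2f2 was not restricted to cluster 19, as given above. Of 30 receptor and junction genes tested 0 were called by limma or by edgeR on recovered reads, 18 were higher at an unadjusted p under 0.05 and 0 lower, and 18 were higher in every line. The shares of all genes by these looser measures were not computed, so these counts have no background to be set against. Without the pclwt line 9 of 31 were called, Tek, Cd34, Pecam1, Cd93, Cdh5, Tie1, Plvap, Adgrf5, and Calcrl, with Cdh5 at an adjusted p of 0.018 (limma). That fit called 216 genes higher in all.

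Of 18 transcription factors 1 was called by limma and edgeR called Mef2c as well, which went from 5.13, 3.07, and 0 to 295, 115, and 6.00 (4.41, SE 0.98, adjusted p = 0.096, limma). Of 11 leading genes tested 0 were called by limma or edgeR, 8 were higher at an unadjusted p under 0.05, and 4 were called without the pclwt line. Blood genes were measured in the same samples. Hbb-bh1, an embryonic globin, went from 12.2, 0.832, and 0 to 16800, 3310, and 11.9 (8.28, SE 1.65, adjusted p = 0.093, limma), and of 14 blood genes 0 were called by limma, 10 were higher at an unadjusted p under 0.05, edgeR called 6, and 8 were called without pclwt. For the leading and the blood genes too, the share of all genes at an unadjusted p under 0.05 was not computed. Over all genes, edgeR called 38 of 13215 higher. The fit without pclwt called 216 higher, and the number it tested is not given here, so its list counts have no share beside them. The part of blood cells in the shared genes was not tested.

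**Figure D5:**
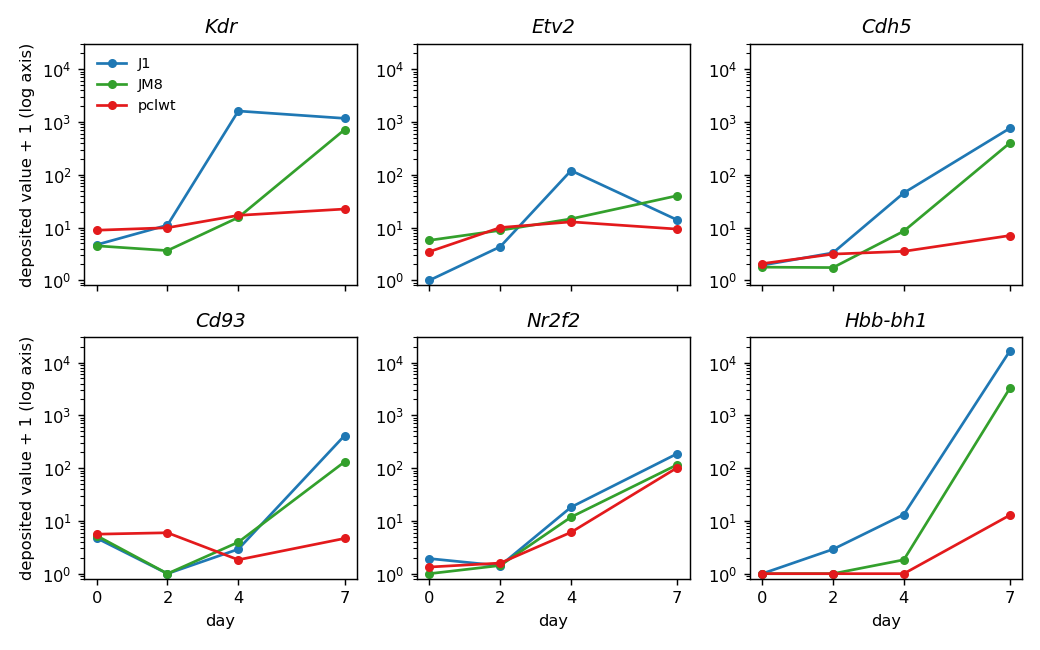
Deposited value plus 1 (log axis) of Kdr, Etv2, Cdh5, Cd93, Nr2f2, and Hbb-bh1 against day (0, 2, 4, and 7) in EBs of the wild-type lines J1, JM8, and pclwt, 1 sample per line and day. The day 0 values are headed mono. Cdh5 and Cd93 are higher at day 7 than at day 4 in all 3 lines and highest in J1, at 763 and 411, and pclwt stays low for all but Nr2f2.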

How the data were processed

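The authors sequenced sorted cells by SORT-seq and deposited UMI counts per gene and cell, with reads aligned to GRCm38. Cells with few genes were removed, library effects were regressed out, and cells were clustered with Seurat. The deposited mesoderm values are estimated counts from Salmon, summed per gene and rounded here. The deposited EB values are counts scaled by size factors (a signal without a fixed total), and 100% of values came out as whole reads within 0.01 reads, at 5450149 to 15605645 reads per sample. The submitters' processing notes name CASAVA, Bowtie2, HTSeq, Salmon, and DESeq2, with versions not given in the sources used here.

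Counts of cluster 19 were pooled and compared with Python 3.11.15 (numpy 2.4.6, pandas 2.3.3, scipy 1.17.1). No doublet caller was run, since 1 cell was sorted per well, and 4 of the 57 cells lay above the 95th percentile of UMIs of their library. Mesoderm genes passing filterByExpr (minimum count 10, minimum total 15) were tested with edgeR 4.0.16 in R 4.3.3, with the Benjamini-Hochberg adjustment, and EB genes with a mean value of at least 10 with limma 3.58.1 on log2(value + 1). DESeq2 1.42.0 was an alternative. Scripts were tested on simulated data. The genes named were the listed genes, the 20 with the highest ratio to all other cells, and the 15 lowest against cluster 4. The cluster, its gene lists, and the tests were chosen with earlier results of these data known. Mutant bulk EB samples and the directed endoderm were not used here.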

Additional observations from a re-analysis of the deposited data

Results flagged for a closer look

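Wells that were left out of the kept cells also held RNA of the marker genes, in data that no comparison used. In the 535 such wells of day 10, with 135273 UMIs in all, Kdr was at 229 CPM (31 UMIs) and Cdh5 at 44.4 CPM (6 UMIs). In the 172 such wells of day 0 both were at 0 UMIs. No left-out well had UMIs of 10 or more endothelial genes.

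Kit changed in opposite directions over the 48 h of mesoderm differentiation. The test of the difference itself, made after the data were seen, gave a log2 effect 2.38 higher in Mtf2 null than in WT (SE 0.24, adjusted p = 2.4e-06, edgeR). Kit went from 54.8 and 42.8 CPM to 21.7 and 19.8 CPM in WT and from 15.8 and 16.8 CPM to 38.4 and 33.9 CPM in Mtf2 null, so both lines differed before differentiation as well. Of 18361 genes 193 had a higher and 304 a lower effect in Mtf2 null by the same limits.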

How the results depend on the processing

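Cluster shares stayed within the counting interval of the reported share under 32 of 32 alternatives, but most of these could not move them. All 57 cells had UMIs of at least 2 endothelial genes, so keeping only such cells changed nothing, and libraries with 0 cells stay at 0. As shares of all wells the day 10 values were 1.3% in WT, 3.12% in Mtf2 null, 4.69% in Jarid2 null, and 2.6% in Eed null. Thinning to 2500 UMIs per cell gave 186 higher and 71 lower genes against all other cells, and 123 and 51 against cluster 4, with fewer genes past the limit on cells. Leaving out single-cell libraries gave 305 to 385 higher genes against all other cells. Receptor sums were 9560 CPM in WT and 11800 in Mtf2 null for day 10 cells only, and 12100, 5320, and 9250 in Mtf2 null, Jarid2 null, and Eed null as means over cells. The WT transcription factor sum was 4380 for day 10 cells. For WT mesoderm, the 4 libraries compared alone gave 503 higher genes and 1 endothelial gene lower, and leaving out a replicate gave 463 to 1169 higher and 346 to 456 lower genes, with 2 to 5 endothelial genes higher and 1 to 2 lower. For Mtf2 null against WT, genes lower numbered 855 without the filter and 370 in 4 libraries, and leaving out a replicate gave 335 to 536 higher and 307 to 334 lower genes, with 2 to 3 endothelial genes higher. For libraries labelled Jarid2 null, DESeq2 gave 15 lower genes, no filter 75 higher and 72 lower, 4 libraries 0 and 0, and leaving out a replicate 3 to 4 higher and 0 lower. For the EBs, 8 higher and 3 lower genes became 5 and 1 with log2(value + 0.1) and 0 endothelial, 16 and 7 with log2(value + 5), 27 higher without the filter, 1 and 0 without the line block and 0 endothelial, and 38 and 13 by edgeR with 2 endothelial. Leaving out a line gave 0 (without JM8) to 216 (without pclwt) higher, 0 to 86 lower, and 0 to 11 endothelial genes higher. The log2 change of Etv2 reversed without J1 (0.5; -1.78 without JM8) and that of Kdr without JM8 (-0.03; 2.96 without J1). The cause was not tested. A mesoderm group with a replicate left out has 1 library, which is assumed to vary like the other groups. The depth limits single genes to 7.07 CPM at 3 UMIs in the cluster.

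With the replicate block, WT mesoderm gave 995 higher and 556 lower genes, Mtf2 null 666 and 544, and the libraries labelled Jarid2 null 24 and 4. For each comparison, the differences of replicate 1 and replicate 2 were correlated over genes between the 2 groups, with 2 pairs each. The correlations were -0.17 within WT, -0.08 for Mtf2 null against WT, and 0.12 for Jarid2 null against WT. With 1 such difference per group, these values cannot decide whether the replicate numbers pair the libraries. Crossing the numbers for WT, chosen after seeing the data, gave 1007 higher and 562 lower genes.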
